A study of Mus musculus with 18 samples.

Results

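The genes described here encode the proteins of the cytosolic ribosome in mouse bone marrow-derived macrophages (BMDMs), cells that grow out of marrow in M-CSF. They were chosen by name, as Rpl or Rps followed by a digit together with Rplp0, Rplp1, Rplp2 and Rpsa, leaving out the Rps6k kinases and pseudogenes. The rule found 85 of the 21734 protein-coding genes of the count table. Of these, 77 were core subunits, 46 of the large and 31 of the small subunit, and 8 were paralogs or other genes with a matching name. A total of 81 passed the filter on low counts, 76 core genes and 5 of the others. Rpl13a, Rps27rt, Rpl3l and Rpl10l did not pass and are described by their counts at the end.

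The series holds 18 RNA libraries in 6 groups of 3, made from mice of 6 to 7 months and mixed 129/B6 strain, 3 of each genotype. WT mice carry the normal miR-146a, a microRNA that LPS induces and that restrains inflammatory signalling. KO mice lack the precursor of miR-146a, and 3F mice carry a form that keeps the seed but has an altered non-seed part. Both are germline alleles, so the marrow had developed with them. The cells of all groups grew for 8 to 9 days with 10 ng/ml M-CSF and then spent 16 h in fresh medium, either without LPS (resting) or with LPS at 1 ng/ml. The labels do not say which cultures came from the same animal, so p-values measure the spread between these libraries. The transcripts of miR-146a were not analysed here, so the alleles could not be checked from the targeted RNA.

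Each ribosome holds a copy of nearly every subunit, so cells make these proteins in matched amounts. Their mRNAs are short, abundant and stable, and most belong to the TOP class, whose 5′ ends carry a C followed by a run of pyrimidines. When growth signals fall, the protein Larp1 holds TOP mRNAs back from translation through this run, so output can change while the amount of mRNA does not, and RNA counts do not show it. Most of the genes also have many processed pseudogenes in the mouse genome, whose sequence reads may match.

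Starts of 57 core genes could be read from RefSeq annotation of build GRCm38.p6. A run of at least 7 pyrimidines (C or T) reached within 5 bases of the start in 26 of the 57 core genes (45.6%), against 15.7% of all 27025 genes in the table. A C at the start followed by 4 pyrimidines occurred in 13 core genes (22.8%), against 3.0% of all genes. The run was present in 33.3% of 15 other genes known for TOP mRNAs and 13.0% of 69 genes of the mitochondrial ribosome. The search was made on the transcribed strand alone. The windows below show 15 bases on each side of the start, with the longest pyrimidine run near the start in capitals. Rps6 and Rpl35 show the TOP form, and the other windows belong to the genes with the differences described further on.
Rps6 (chr4:86857353-86857382, minus strand): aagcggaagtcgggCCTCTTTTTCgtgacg
Rpl35 (chr2:39005117-39005146, minus strand): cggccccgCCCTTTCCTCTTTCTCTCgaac
Rps15a (chr7:118116133-118116162, minus strand): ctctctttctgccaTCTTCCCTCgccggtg
Rps13 (chr7:116334176-116334205, minus strand): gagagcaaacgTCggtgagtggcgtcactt
Rps3a1 (chr3:86142654-86142683, minus strand): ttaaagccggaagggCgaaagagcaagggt
Rpl24 (chr16:55966260-55966289, plus strand): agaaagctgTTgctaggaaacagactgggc

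The long run of Rps15a sits at its annotated start, while the windows of Rps13, Rps3a1 and Rpl24 have no long run there. The annotated start can lie a few bases from the one these cells use, so a missing run is a description of these windows only.

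MiR-146a, the microRNA that the alleles change, pairs through its seed, and few of these mRNAs hold a match to it. Its mature sequence (RefSeq, GRCm38.p6, chr11:43374435-43374456, minus strand) is shown with the seed, bases 2 to 8, in capitals, followed by the 3 matches to the whole seed, AGTTCTC, found on the transcribed strand of the longest annotated 3′ UTR of each gene, with the match in capitals and positions in GRCm38.
mmu-miR-146a-5p: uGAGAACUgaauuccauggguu
Rpl10 (chrX:74273069-74273092, plus strand): ggcttcaatAGTTCTCctataccc
Rpl22 (chr4:152332592-152332615, plus strand): agaaacttgAGTTCTCcagtagca
Rps15a (chr7:118106160-118106183, minus strand): gaacaccatAGTTCTCaccactcg

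These 3 made up 3.7% of the 81 tested genes, against 12.6% of 11261 tested genes with an annotated 3′ UTR. The shorter match GTTCTC, which lies inside the longer one, was present in 8 (9.88%) against 33.5%. The 3′ UTRs of these genes were short, with a median of 173 bases against 1171 for all tested genes. The site of Rpl10 lies 12 bases after the stop codon and that of Rpl22 178 bases after it. The site of Rps15a lies 2927 bases into a UTR of 4728 bases. In resting KO against WT, Rpl10, a large subunit protein at the ribosome core, had a log2 fold change of 0.06 and Rpl22 one of −0.13, and neither passed the test. Rps15a had −0.61 (adjusted p = 0.351) with all libraries and −0.60 (adjusted p = 0.00907) without 3F resting replicate 3, a library described further on.

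Ribosomal protein mRNA was abundant in every library. Counts were divided by library sizes scaled by TMM, a method that assumes most genes do not change, to give CPM, and levels between genes are compared as CPM per kb of exon. Rplp1, a protein of the acidic stalk that recruits elongation factors, was the highest at 1397 ± 161 (SD, n = 3) CPM per kb in resting WT. Rpl32 followed at 1128 ± 130 (SD, n = 3) and Rps29 at 846 ± 55.9 (SD, n = 3). Rplp1 also had a higher mean than Rpl32 in each other group, such as 1267 against 1063 in WT with LPS. The SDs between libraries do not compare genes of the same library, and the order was not tested. Rps29 lay below both in resting WT, but not below Rpl32 in KO with LPS (1025 against 1016). Over all 18 libraries the lowest tested core genes were Rpl29 with 28.4, Rpl21 with 32.4 and Rpl15 with 43.9 CPM per kb, where the exon length counts bases of every annotated isoform. Among the paralogs, Rps27l reached 165 and Rpl22l1 104 CPM per kb, Rpl7l1 reached 47.3 and Rps19bp1, whose product is not a subunit, 15. Rpl39l, a paralog best known from testis, reached 0.604.

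**Figure D1:**
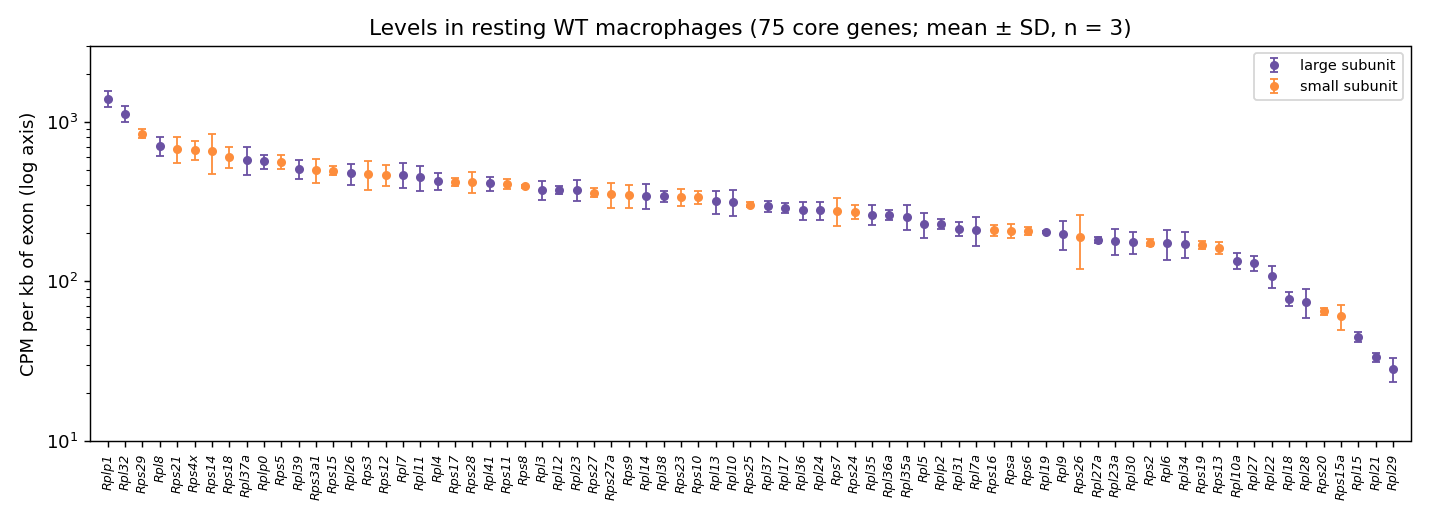
Level of 75 of the 76 tested core genes in resting WT BMDMs in CPM per kb of exon on a log axis, as the mean of 3 libraries (points, colored by subunit) with the SD (bars), in order of level. Rplp1 (1397), Rpl32 (1128) and Rps29 (846) stand at the top and Rpl29 (28.0) at the end.

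The 3F resting replicate 3 library stood apart from the other 17 in these genes, and each comparison below is therefore given with and without it. It had 4071084 counts, against 7995881 to 19818043 in the others. The 85 genes took 5.94% of its counts, against 2.09% to 3.11% elsewhere. The deviation of a gene is its log2 CPM in a library minus its mean over all libraries, and the median deviation of the 76 core genes was 1.04 there, against −0.23 to 0.11 in the others. The large subunit genes (0.97) and the small subunit genes (1.06) shared the excess. Markers of macrophages were high in every library (summed CPM 31300 to 86600), while summed CPM of T cell markers was at most 11.3 and of B cell markers at most 1.17. In 3F resting replicate 3, the 4 dendritic cell markers summed to 3.98 CPM (at most 0.865 elsewhere), the 5 erythroid markers to 0.702 (at most 0.348) and the 4 mast cell or basophil markers to 0.702 (at most 0.22). The erythroid and mast cell or basophil sums rest on few reads in this library, the one with the fewest counts. The 8 neutrophil markers summed to 66.5 CPM there, within the 13.7 to 67 of the others, and the part of these values in the excess was not tested.

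KO resting replicate 3 also stood apart, though not by an excess of these genes. Its median deviation of −0.23 was the lowest of the 18 libraries, and the 85 genes took a smaller share of its counts than the 2.76% and 2.67% in the other resting KO libraries. The chi-square statistic over genes, divided by its degrees of freedom, was 109 and 99.2 against those libraries, while the statistic between them was 6.95. For 3F resting replicate 3 against its own replicates it was 63.4 and 57.9, and between WT LPS replicates 2 and 3 it was 49.1. The statistic uses raw counts and grows with depth, so it does not rank libraries of unlike depth. The weights that limma-voom gave to these libraries were the lowest of the 18, at 0.168 for KO resting replicate 3 and 0.149 for 3F resting replicate 3. T cell markers summed to 0.449 CPM in KO resting replicate 3, against 8.96 and 10.8 in the other resting KO libraries, and their part in the results was not tested. The comparisons that contain resting KO are therefore also given from 16 libraries, without this one and 3F resting replicate 3, a fit chosen after the data were seen.

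The excess was uneven among the genes. It was the highest of the 18 libraries for 67 of the 76 core genes, and 61 lay at least 0.5 above their mean. Rpl39, a very small protein of the exit tunnel, had 288 and 317 CPM in the other resting 3F libraries and 1499 CPM in this one. Its deviation of 2.23 led the order, followed by Rps15a with 2.09, Rpl22 with 1.99, Rpl35a with 1.85 and Rpl34 with 1.82. The library was below the mean for 7 core genes, with Rps26 (−0.42) and Rpl24 (−0.30) the lowest.

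**Figure D2:**
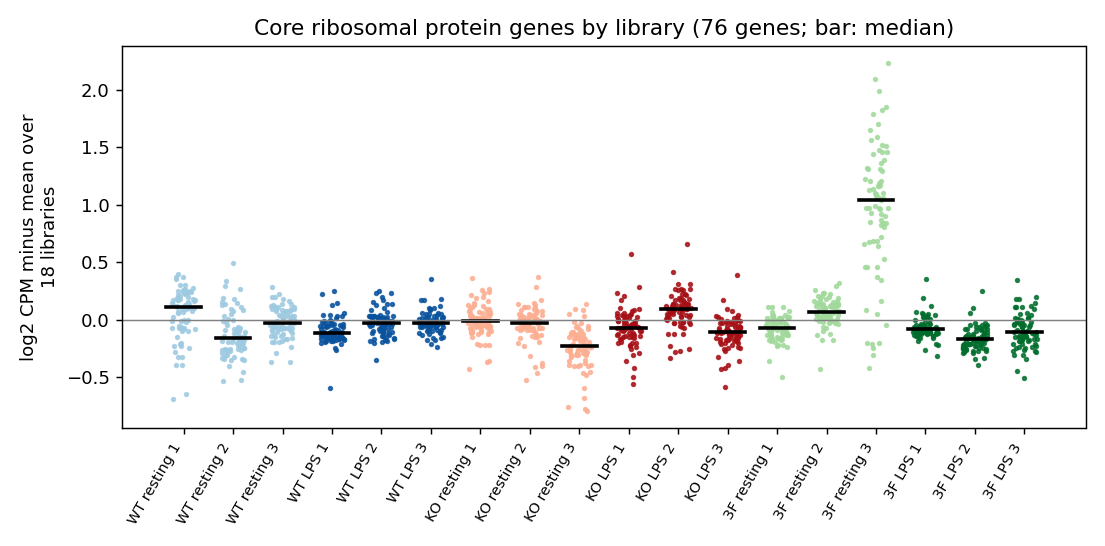
Deviation of each of the 76 core genes (points) in each of the 18 libraries, as log2 CPM minus the mean of the gene over all libraries, with bars for medians. The median in 3F resting replicate 3 is 1.04, and in the other libraries it lies between −0.23 and 0.11.

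Other short genes were also high in that library. For 560 tested genes outside the ribosome with under 1000 bases of exon, the median deviation was 0.74. In 4 classes of longer genes, in order of length, it was 0.26, −0.016, −0.16 and −0.18. Genes of oxidative phosphorylation, many of them short, had a median of 0.74, the mitochondrial ribosome 0.55, other TOP mRNAs 0.34 and ribosome biogenesis 0.14. Among the 76 core genes, the deviation had a Pearson r of 0.13 with log2 exon length, as a description across genes of 1 library. Length, depth and the other markers differ together in this single library and cannot be told apart there. In bulk RNA, fewer cells of a type and less RNA per cell also cannot be told apart.

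**Figure D3:**
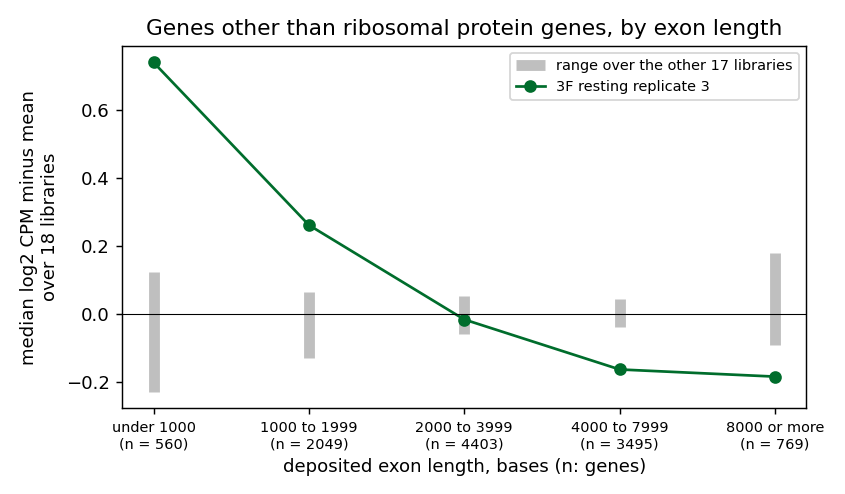
Median deviation (log2) of genes outside the cytosolic ribosome by exon length class, with 3F resting replicate 3 set against the range of the other 17 libraries. It falls from 0.74 in genes under 1000 bases to −0.18 in the longest class, and the other libraries stay between −0.23 and 0.18.

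Outside that library, ribosomal protein mRNA varied little between groups. Without it, the range between the highest and lowest of the 6 group means had a median of 0.22 on the log2 scale over the core genes, and 69 of 76 (90.8%) stayed under 0.5. Of 11276 other tested genes, 45.4% did so, and their median range was 0.549. These other genes were not matched to the abundant core genes by level, and low counts widen the range of group means. The median SD within groups was 0.135. Rpl23a (0.0451), the stalk protein Rplp0 (0.0638), often used as a reference gene, and Rpl6 (0.0771) were among the steadiest. Rplp0 had 880, 892 and 896 CPM in LPS-treated WT libraries and 1001, 822 and 883 CPM in resting ones, and the groups overlapped. The widest ranges belonged to Rpl24 (1.01), Rps13 (0.76), Rps3a1 (0.66), Rps15a (0.63) and Rps9 (0.62).

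The first comparison asks how LPS changed these genes in WT cells. Rpl24 and Rpl7l1 rose and none fell, so 2 of 81 were called at an adjusted p under 0.05 (edgeR quasi-likelihood test over all 18 libraries, Benjamini-Hochberg over 11357 genes), while 16.3% of all tested genes were called higher and 12.3% lower. The median log2 fold change was −0.041 over these genes and 0.016 over all genes. At an unadjusted p under 0.05 the count was 2 in either direction, DESeq2 called 2 and limma-voom 7. The library 3F resting replicate 3 enters this comparison only through the filter, the scaling and the estimate of spread. Without it, 3 genes rose (Rpl24, Rpl7l1, Rps9) and Rpl3 fell, where 18.1% of all genes were called higher and 16.8% lower.

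Rpl24, a large subunit protein that forms a bridge to the small subunit, was called higher with LPS in each genotype. In WT it had 309.0, 308.8 and 331.5 CPM with LPS against 160.9, 203.1 and 201.4 at rest. In KO it had 384.5, 410.4 and 340.0 CPM with LPS against 222.8, 195.4 and 230.5. In 3F it had 330.8, 308.6 and 329.9 CPM with LPS against 183.2, 193.1 and 210.0. All 9 LPS libraries were above all 9 resting libraries, which held for no other gene among the 81 (1.23%), against 6.68% of all tested genes. The log2 fold change was 0.75 ± 0.11 (SE, adjusted p = 0.000132 with edgeR) in WT, 0.81 (adjusted p = 5.52e-05) in KO and 0.73 (adjusted p = 0.000159) in 3F. Rpl24 lies on chr16:55966275-55971435, plus strand (GRCm38, Gencode M21), where it overlaps Gm28037 on the same strand. Of its exon windows of 50 bases, 81.7% also occur in transcripts of other genes. Most reads that match several places were dropped before counting, so its level may be undercounted. The part of this in its change with LPS was not tested.

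Rpl7l1, a paralog of Rpl7 with a part in ribosome assembly, had 134.3, 130.2 and 128.4 CPM in WT with LPS against 118.2, 92.4 and 96.0 at rest, without overlap. Its log2 fold change of 0.36 ± 0.12 (SE) had an adjusted p of 0.031 (edgeR). The same value was 0.26 (adjusted p = 0.115) in KO and −0.03 in 3F, or 0.07 without 3F resting replicate 3. The call in WT was lost without WT LPS replicates 1, 2 or 3 or WT resting replicates 2 or 3, at adjusted p of 0.0856, 0.0575, 0.0622, 0.127 and 0.105. Rps9, a small subunit protein that helps set decoding accuracy, rose by 0.31 (adjusted p = 0.0425) and Rpl3, near the peptidyl transferase centre, had −0.33 (adjusted p = 0.0449) in the fit without that library.

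In KO cells 1 of the 81 genes was called higher with LPS, Rpl24, and 1 lower, where 14.3% of all genes were called higher and 12.6% lower. The median log2 fold change was 0.078, against 0.019 over all genes. DESeq2 called 3 of the 81 genes in KO and limma-voom 10. Without 3F resting replicate 3, Rpl24 (0.75) was called higher and 2 genes lower, among them Rpl10a (−0.32, adjusted p = 0.0262), a large subunit protein. In that fit 15.6% of all genes were called higher and 18% lower. Rpl10a had 86.6, 95.0 and 86.4 CPM in KO with LPS against 113, 109 and 97.5 at rest, and the groups did not overlap. From 16 libraries, without KO resting replicate 3 as well, Rpl24 (0.78) was called higher and 6 genes lower, against 21.5% and 22.7% of all genes. The 6 genes lower included Rpl10a (−0.39, adjusted p = 0.00562) and Rps2 (−0.34, adjusted p = 0.00887), and the median turned to −0.076.

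In 3F cells the LPS comparison depended on the resting library that stood apart. With all libraries, 1 gene rose and 34 fell, against 17.2% of all genes called higher and 14% lower, and the median was −0.55 against −0.0085. Without it, Rpl24 rose and Rpl10a and Rpl3 fell, all 3 of them also among the 35, and the median was −0.15. In that fit 14.5% of all genes were called higher and 13.1% lower. Rpl22, a large subunit protein, had 196.1, 188.5 and 200.7 CPM with LPS against 227.2, 244.8 and 902.5 at rest. Its log2 fold change went from −1.23 (adjusted p = 0.0193) to −0.32 (adjusted p = 0.161) in the fit without the library. Rps15a had 338.8, 300.7 and 297.6 CPM with LPS against 344.5, 382.1 and 1427 at rest. The change went from −1.20 (adjusted p = 0.0225) to −0.26 (adjusted p = 0.207). Rps14, a small subunit protein, had 716.6, 725.6 and 533.3 CPM with LPS against 742.1, 890.1 and 2459 at rest. Its value went from −1.05 (adjusted p = 0.0254) to −0.35 (adjusted p = 0.212). In each of these 3 genes the third resting value set the size of the change. Other genes called with all libraries and no longer without it included Rpl5 (−0.82) and Rpl11 (−0.72), which bind Mdm2 when ribosome assembly is disturbed, and Rpl39 (−1.32). Fits of all libraries with a block on the replicate number called fewer than the 35 genes, with counts given in the last section.

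None of the 81 genes was called for a difference between the LPS responses of 3F and WT (edgeR, 8 at an unadjusted p under 0.05, none by DESeq2 or limma-voom), and 0% of all genes were called in either direction. The median of this difference was −0.54 with all libraries and −0.090 without 3F resting replicate 3, where again none was called and none had an unadjusted p under 0.05. None was called for KO and WT by the same test (edgeR, 1 at an unadjusted p under 0.05, none by DESeq2 or limma-voom), where 0% of all genes were called higher and 0.00881% lower. Its median was 0.10 with all libraries, 0.076 without 3F resting replicate 3 (none called, 1 at an unadjusted p under 0.05) and 0.0019 from 16 libraries (none called). All these responses were also measured relative to the bulk of the transcriptome. With library sizes not scaled by TMM, the median over all genes was −0.24 in WT, −0.26 in KO and −0.21 in 3F, a shift of −0.25, −0.28 and −0.20 from the fit with TMM. The medians of the 81 genes were then −0.29, −0.21 and −0.74. Relative to all genes, the medians without TMM were −0.056, 0.051 and −0.53, close to the −0.057, 0.059 and −0.54 with it. The counts without TMM were 1 higher and 4 lower in WT, 1 and 9 in KO, and 1 and 67 in 3F.

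**Figure D4:**
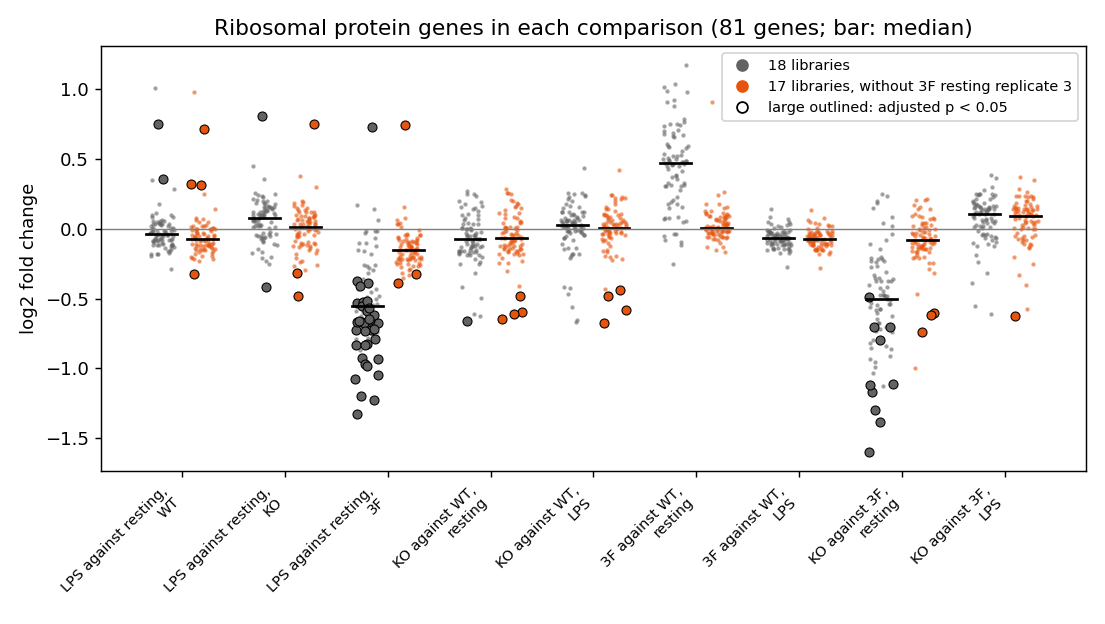
Log2 fold change of each of the 81 tested genes (points) in 9 comparisons, grey with all 18 libraries and orange with 17, without 3F resting replicate 3, with bars for medians and large outlined points for adjusted p under 0.05. In the LPS comparison of 3F the median moves from −0.55 to −0.15 and in resting 3F against WT from 0.47 to 0.0044, while in WT with LPS it is −0.041 and −0.076.

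The next comparisons set KO cells against WT cells. The paper made the KO and 3F alleles in separate stem cell lines and bred them as separate colonies. It drew wild-type controls from both colonies and noted no phenotypic difference between these sources. The sample titles do not give the colony of each WT library. The allele and the rest of the line therefore cannot be told apart in these comparisons. In resting cells Rps13 fell in KO against WT and no gene rose, so 1 of 81 was called, where 5.12% of all genes were called higher and 4.27% lower. The median was −0.075, against 0.017 over all genes. After LPS none was called (edgeR, 4 at an unadjusted p under 0.05, 2 by DESeq2, 6 by limma-voom), where 1.89% were called higher and 2.9% lower. Without 3F resting replicate 3, Rps13, Rps15a, Rps3a1 and Rpl22l1 were lower in resting KO, with a median of −0.065. After LPS the same fit called Rps13, Rps3a1, Rps2 and Rpl22l1 lower, with a median of 0.0077. In that fit 7.91% of all genes were called higher and 6.18% lower at rest, and 3.2% and 5.34% after LPS. The 4 genes called lower in each state were 4.94% of the 81. Without KO resting replicate 3 alone no gene was called at rest, and Rps13 had −0.56 (adjusted p = 0.12). From 16 libraries 3 genes were lower (Rps13, Rps3a1, Rps15a) and 1 was higher at rest (Rps27, 0.41, adjusted p = 0.0118), where 8.1% of all genes were called higher and 6.53% lower. After LPS the same fit called 1 gene higher, Rps27, and 5 lower, where 6.06% of all genes were called higher and 8.11% lower.

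Markers of dividing cells and a macrophage product also differed in KO. The 10 dividing cell markers summed to 569 to 676 CPM in resting KO, 1140 to 1460 in resting WT and 1010 to 1420 in resting 3F. After LPS the sums were 433 to 466 CPM in KO and 666 to 937 in WT. Of the 10 markers, 7 were called lower in KO than in WT at rest and 6 after LPS, with none higher. Lyz2, the lysozyme of macrophages, took 5.3% to 6.1% of counts in the KO libraries and 3.05% to 4.78% in those of WT. The part of these values in the differences described next was not tested.

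Rps13, a small subunit protein that contacts the large subunit, had 153.6, 149.9 and 122.4 CPM in resting KO and 154.3, 163.9 and 138.2 in KO with LPS. In WT it had 247.1, 211.7 and 213.7 CPM at rest and 242.0, 243.2 and 233.0 with LPS. In 3F it had 222.9, 253.3 and 452.3 CPM at rest and 236.4, 222.6 and 237.0 with LPS. Every KO library was below every WT and 3F library. The log2 fold change of KO against WT was −0.66 ± 0.19 (SE, adjusted p = 0.0406 with edgeR) at rest and −0.65 (adjusted p = 0.0607) after LPS. The call at rest was lost without any of the 6 libraries compared, at adjusted p from 0.0572 to 0.133. It was also lost in the fit with a block on the replicate number. In the fit without 3F resting replicate 3 the values were −0.65 (adjusted p = 0.00148) and −0.67 (adjusted p = 0.0016). KO resting replicate 3 was the lowest of the 6 KO libraries for Rps13, and from 16 libraries the values were −0.54 (adjusted p = 0.00185) and −0.67 (adjusted p = 0.000116). Rps13 lies on chr7:116331505-116334195, minus strand (GRCm38, Gencode M21), and 33.5% of its exon windows of 50 bases also occur in other genes. Its neighbour Plekha7, 23128 bases away on the same strand, had 0 or 1 counts in the WT libraries, 0 to 3 in 3F and 90 to 193 in KO. Plekha7 was looked at after its values were seen, and what the counts at this locus share was not tested.

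Rps3a1 and Rps15a, both small subunit proteins, showed the same order of genotypes. Rps3a1 had 343.5, 334.1 and 274.3 CPM in resting KO against 580.5, 416.4 and 469.7 in resting WT, and 312.7, 375.3 and 328.7 against 487.3, 519.0 and 495.8 after LPS. Its log2 fold change was −0.62 (adjusted p = 0.111) at rest with all libraries and −0.61 (adjusted p = 0.00561) without 3F resting replicate 3. Rps15a had 259.4, 257.3 and 195.0 CPM in resting KO against 427.7, 296.4 and 360.1 in resting WT, and 260.5, 277.5 and 255.5 against 345.1, 354.9 and 359.6 after LPS. Its log2 fold change was −0.61 (adjusted p = 0.351) with all libraries and −0.60 (adjusted p = 0.00907) without that library. For Rps13, Rps3a1 and Rps15a, all 6 KO libraries were below all 12 of WT and 3F, 3.7% of the 81 genes against 0.704% of all tested genes, and for none were they above (0.546% of all genes). Rps15a lies on chr7:118104372-118116188, minus strand (5.4% of windows shared), and Rps3a1 on chr3:86137940-86142702, minus strand (71.0% shared). After LPS, without 3F resting replicate 3, Rps3a1 had −0.58 (adjusted p = 0.0118) and Rps15a had −0.44 (adjusted p = 0.0542), which missed the threshold. KO resting replicate 3 was also the lowest KO library for both genes. From 16 libraries Rps3a1 had −0.51 (adjusted p = 0.0123) at rest and Rps15a −0.46 (adjusted p = 0.0178). After LPS the same fit gave −0.58 (adjusted p = 0.00249) for Rps3a1 and −0.44 (adjusted p = 0.0118) for Rps15a.

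**Figure D5:**
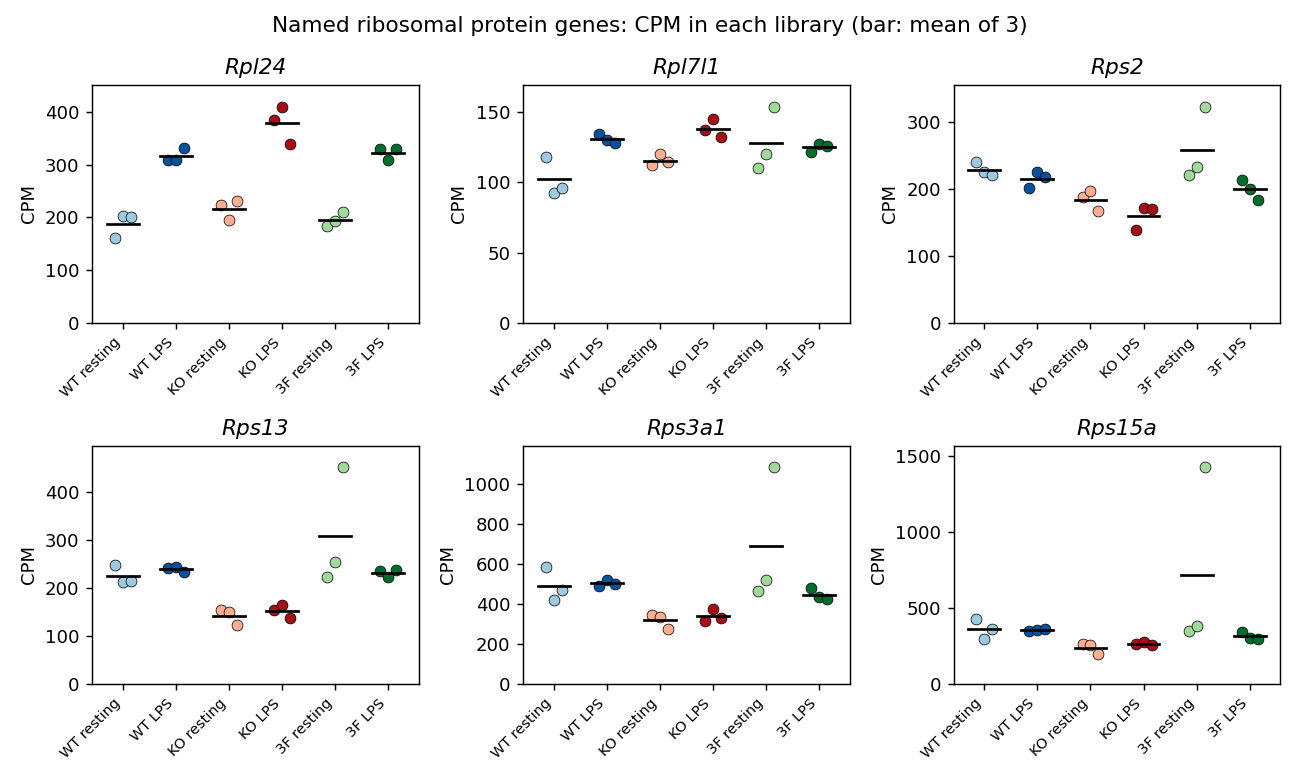
CPM of Rpl24, Rpl7l1, Rps2, Rps13, Rps3a1 and Rps15a in each library (points), in the 6 groups, with a bar for the mean of 3 libraries and an axis from 0 in each panel. The LPS libraries of Rpl24 lie above all resting ones, and the KO libraries of Rps13, Rps3a1 and Rps15a lie below those of WT and 3F, whose high resting points are 3F resting replicate 3 (452, 1081 and 1427 CPM).

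Rps2, a small subunit protein of the mRNA entry, had 139.1, 171.5 and 169.7 CPM in KO with LPS against 201.5, 224.9 and 217.9 in WT, without overlap. The change was −0.42 (adjusted p = 0.081) with all libraries and −0.44 (adjusted p = 0.0145) without 3F resting replicate 3, and at rest −0.31 (adjusted p = 0.0524) without it. Rpl22l1, a paralog of Rpl22 that can take its place, had 47.3, 50.7 and 42.9 CPM in resting KO against 78.4, 53.6 and 66.3 in resting WT. Its value was −0.49 (adjusted p = 0.232) with all libraries and −0.48 (adjusted p = 0.0307) without that library. Of the other genes fixed for naming, Rpsa (−0.14), Rps6 (−0.15), Rpl11 (−0.06), Rpl5 (−0.25) and Rpl39 (−0.22) were not called in resting KO. Rps27 had 0.44 after LPS (adjusted p = 0.365) with all libraries and 0.42 (adjusted p = 0.00618) from 16 libraries.

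The 3F allele was compared with WT in each state. None of the 81 genes was called at rest (edgeR, 42 at an unadjusted p under 0.05, none by DESeq2 or limma-voom), where 0% of all genes were called in either direction, and the median was 0.47. Without 3F resting replicate 3 the median was 0.0044 and no gene had an unadjusted p under 0.05. After LPS none was called (edgeR, none at an unadjusted p under 0.05, none by DESeq2 or limma-voom), where 0.00881% of all genes were called higher and 0% lower, and the median was −0.068. Without 3F resting replicate 3 none was called or had an unadjusted p under 0.05 after LPS, and the median was −0.073.

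KO and 3F were also compared directly, with the KO libraries shared with the comparison to WT. At rest 10 genes were lower and none was higher in KO, where 6.79% of all genes were called higher and 6.1% lower, with a median of −0.51. Without 3F resting replicate 3, Rps13 (−0.74, adjusted p = 0.00312), Rps3a1 (−0.62, adjusted p = 0.0206) and Rps15a (−0.60, adjusted p = 0.0269) were lower. All 3 were also among the 10, and the median was −0.084. In that fit 3.68% of all genes were called higher and 2.75% lower. With all libraries the values of Rps13, Rps3a1 and Rps15a were −1.12, −1.11 and −1.59. From 16 libraries they were −0.63, −0.51 and −0.47, with the 3 genes called lower. There 4.02% of all genes were called higher and 2.54% lower. After LPS none was called (edgeR, 2 at an unadjusted p under 0.05, 1 by DESeq2, 3 by limma-voom), where 1.51% of all genes were called higher and 2.37% lower. Rps13 was at −0.61 (adjusted p = 0.0908) and was called lower in the fit without 3F resting replicate 3. In that fit 2.53% of all genes were called higher and 3.9% lower. The median of the 81 genes there was 0.091, against 0.10 with all libraries.

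The 4 genes below the filter, and the lowest that passed, had counts near the floor. Rpl3l, a paralog of Rpl3 known from striated muscle, had 3 to 9 counts in the KO libraries and at most 1 in those of WT, with sums of 32 in KO, 5 in WT and 11 in 3F. Rpl10l, a testis paralog of Rpl10, had 0 counts in 16 libraries and at most 3. Rps27rt had 2 to 14 counts per library. Rpl39l passed the filter with 0 to 20 counts, and its log2 fold change with LPS in WT of 1.01 had an adjusted p of 0.38. Rpl13a, a core gene, had 0 to 10 counts, over an exon length of 147 bases in the table. Its annotation in Gencode M21 is longer, with 1395 exon windows, and overlaps Gm45713 on the same strand. The counts of Rpl13a may therefore not describe the whole gene, and its level in these cells cannot be read from them. Fau and Rack1, subunits outside the name rule, had log2 fold changes of 0.08 and −0.03 with LPS in WT and were called in no comparison.

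Genes of connected systems were counted from lists of their own, to be read against the 16.3% of all tested genes called higher and 12.3% called lower with LPS in WT. There, 7 of 88 tested ribosome biogenesis genes rose and none fell, with a median of 0.034, and they included Eif6 (0.92, adjusted p = 0.00174), which keeps large subunits from joining early, and Rrs1 (0.65, adjusted p = 0.00781), a 5S assembly factor. Of 78 mitochondrial ribosomal protein genes 2 rose and 2 fell, among them Mrpl52 (2.09, adjusted p = 8.83e-09) and Mrps6 (−1.12, adjusted p = 0.0239). Of 75 oxidative phosphorylation genes, Ndufc2 (0.37, adjusted p = 0.0269) and Cox5a (0.33, adjusted p = 0.0163) rose. Of 20 other TOP mRNAs, the initiation factor Eif4b (−0.59, adjusted p = 0.00739) and Vim (−0.36, adjusted p = 0.044) fell. Of 39 regulators, 9 rose and 5 fell, among them the RNA-sensing kinase Eif2ak2 (2.23, adjusted p = 0.000404) and the Myc antagonist Mxd1 (2.07, adjusted p = 0.00172).

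Larp1, which binds TOP mRNAs, rose with LPS in each genotype. It had 138.5, 127.1 and 140.7 CPM in WT with LPS against 49.6, 82.8 and 88.3 at rest. Its log2 fold change was 0.88 ± 0.24 (SE, adjusted p = 0.0114 with edgeR) in WT, 0.77 (adjusted p = 0.0252) in KO and 1.18 (adjusted p = 0.00162) in 3F, or 0.88 (adjusted p = 0.00416) in 3F without 3F resting replicate 3. Myc, which drives transcription of ribosomal protein genes, had −0.92 (adjusted p = 0.0625) in WT, −2.07 (adjusted p = 0.000725) in KO and −1.37 (adjusted p = 0.00949) in 3F. Without that library Myc was called in WT too (−0.96, adjusted p = 0.0486). The nucleolar genes Ncl and Fbl were not called, and Npm1 had −0.41 in 3F with an adjusted p of 0.048, or 0.093 without that library. In resting KO against WT, Eif2ak2 (1.48, adjusted p = 0.0194) and Mrpl52 (0.53, adjusted p = 0.00825) were higher, and Vim (−0.42, adjusted p = 0.0475) and Mrpl19 (−0.40, adjusted p = 0.0266) were lower. No other gene of the biogenesis, other TOP, oxidative phosphorylation, mitochondrial ribosome and regulator lists was called there.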

How the data were processed

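The authors removed rRNA with Ribo-Zero, made directional libraries and deposited the number of reads per gene as integer counts without normalization. Per the submitters' processing notes and the study's methods, reads were trimmed with cutadapt 1.8.3, cleared of rDNA reads, aligned to mm10 with HISAT2 2.1.0, kept at a mapping quality of at least 50, which drops most reads that match several places, and counted by strand with featureCounts 1.5.3 over Gencode M15. Genes with close pseudogenes can therefore be undercounted.

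Counts were analysed in R 4.3.3 with edgeR 4.0.16. The filterByExpr function kept 11357 genes. After TMM scaling, all 18 libraries entered 1 quasi-likelihood fit with 6 group means. The 11 comparisons were two-sided and adjusted by Benjamini-Hochberg over all tested genes, with calls at an adjusted p under 0.05. The SE is the size of the log2 fold change divided by the square root of F. The smallest exact permutation p for 3 against 3 is 0.1. The procedure was tested on simulated data. Total counts per library ran from 4071084 to 19818043. Intervals and SDs cover these libraries only. Replicates of each group differed by more than sampling noise.

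Alternatives were DESeq2 1.42.0, limma 3.58.1 (voom with quality weights), library sizes without TMM, TMM without these genes, no filter, groups compared alone, replicate blocks and leaving out each library. Fits without 3F resting replicate 3 for comparisons that do not contain it were added after seeing the data, as was a fit of 16 libraries without that library and KO resting replicate 3. The genes and lists were chosen with earlier results of these data known. Named genes were a fixed set, the called genes of largest change without overlap (average log2 CPM of at least 1), the highest and lowest core genes by level, and the largest called changes of each other list. Rps9, Rpl3, Rpl10a, Rps2, Plekha7 and Lyz2 fall outside this rule and were named after their values were seen. Positions are from Gencode M21 and RefSeq, both of GRCm38. Values of some genes of the set are not reported here.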

Additional observations from a re-analysis of the deposited data

How the results depend on the processing

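The count of genes called moved with the settings in most comparisons. For LPS in WT (2) it was 5 without TMM, 1 with no filter, 1 with the groups compared alone and 7 with limma-voom. It was 1 to 4 with each library left out, 1 without any of WT LPS replicates 1, 2 and 3 or WT resting replicates 2 and 3, and 4 without 3F resting replicate 3. For LPS in KO (2) it was 10 without TMM and 10 with limma-voom, and 1 to 4 with each library left out, 4 of them without KO resting replicate 3 and 1 without KO LPS replicates 1 or 3 or KO resting replicates 1 or 2. For LPS in 3F (35) it was 56 with DESeq2, 68 without TMM, 2 with the groups alone and 13 with limma-voom. Leaving out each library gave 2 to 62, with 7, 2 and 5 without 3F LPS replicates 1, 2 and 3, 62, 56 and 3 without 3F resting replicates 1, 2 and 3. For KO against WT at rest (1) it was 4 with limma-voom and 0 to 4 with each library left out, 0 without any library of either group and 4 without 3F resting replicate 3. After LPS (0) it was 2 with DESeq2, 2 without TMM, 1 with no filter, 6 with the groups alone, 6 with limma-voom and 0 to 4 with each library left out, 4 of them without 3F resting replicate 3. For KO against 3F at rest (10) it was 29 with DESeq2, 0 with the groups alone, 4 with limma-voom and 3 to 53 with each library left out, with 4, 4 and 3 without KO resting replicates 1, 2 and 3 and 53, 31 and 3 without 3F resting replicates 1, 2 and 3. After LPS (0) it was 1 with DESeq2, 1 without TMM, 6 with the groups alone, 3 with limma-voom and 0 to 1 with each library left out, 1 without 3F resting replicate 3. From 16 libraries, without 3F resting replicate 3 and KO resting replicate 3 together, a fit chosen after seeing the data, the counts were 6, 7 and 9 for LPS in WT, KO and 3F, 4 and 6 for KO against WT at rest and after LPS, and 3 and 6 for KO against 3F at rest and after LPS. In that fit 21.3% of all genes were called higher and 20.6% lower for LPS in WT, and 18.1% and 17% in 3F. For KO against 3F after LPS, 5.47% were called higher and 6.69% lower. Both comparisons of 3F with WT and both differences of responses gave 0 under every alternative run. The cause of these moves was not tested.

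Same-numbered libraries of a genotype had correlations of their deviations from 0.0283 to 0.318, with 5 of 9 pairs over 0.1, so the numbers were not taken as pairs, although 15 of 18 libraries correlated best with their own number. With the replicate block on the number, the counts were 18 for LPS in 3F, 0 for KO against WT at rest and 5 for KO against 3F at rest, and the block within genotype gave 8 for LPS in 3F. The other block fits left the counts as they were.

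Library medians of the core genes also moved without TMM, to −0.20 in WT LPS replicate 1, −0.20 in WT LPS replicate 3, 0.28, 0.048 and 0.14 in WT resting replicates 1 to 3, −0.23, −0.21 and −0.29 in KO LPS replicates 1 to 3, 0.13 in KO resting replicate 1, and −0.17 and −0.28 in 3F LPS replicates 1 and 2. The rise of Rpl24 kept its call in every alternative. The depth of 3F resting replicate 3, 4071084 counts, limits what resting 3F can show, since without it the group holds 2 libraries.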
